A study of Mus musculus with 23 samples.

Results

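Regulatory T cells (Treg cells) of the mouse gut were compared with the lymph node Treg cells that carry CD103 and Klrg1. The comparison takes 4 of the 23 arrays in the study: 2 arrays of Foxp3-GFP+ cells from the small intestinal lamina propria (LP Treg) and 2 arrays of Foxp3-GFP+ cells from peripheral lymph nodes (LN) that were positive for both CD103 and Klrg1 (LN CD103+Klrg1+, or double-positive). They were chosen by their sample labels. The 2 arrays of Foxp3-GFP- CD4+ cells from the same gut tissue (LP Tconv) were used to mark genes of the site, and the other LN Treg subsets, CD103+Klrg1- and CD103-Klrg1- with 2 arrays each, show where the double-positive cells stand among LN Treg cells.

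All 10 of these arrays came from male mice of the genotype labelled C57BL/6-Foxp3/GFP, aged 6 to 10 weeks and given no treatment that the labels name. The mice carry a GFP reporter of Foxp3. Each array holds RNA from cells pooled from 4 to 6 mice, so a p-value here measures the spread between pools, and nothing in the labels tells if cells of different groups shared mice. That spread was estimated over all 9 groups of the study. The other groups are Homeostatic Foxp3+ and Foxp3- (pools of 2 to 3 mice) and DEC CD25+ and CD25- (5 to 10 mice). DEC CD25- arrays 3 and 4 were dim, with median intensities of 68.5 and 63.7. Without both of them the calls went from 257 to 448. Per the labels, the cells of both sites were sorted as CD3+ and CD4+ and without B220, CD8a and CD11b/c on their surface. The double-positive cells were selected on CD103 and Klrg1 and the LP Treg cells were not.

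Treg cells depend on the transcription factor Foxp3 and hold back immune responses. CD103, the integrin chain encoded by Itgae, binds E-cadherin on epithelial cells, and Klrg1 is an inhibitory lectin-like receptor of antigen-experienced lymphocytes, so the pair marks an activated subset in lymph nodes. T cells enter the small intestine through the chemokine receptor Ccr9 and the integrin made of the Itga4 and Itgb7 chains, which retinoic acid from gut dendritic cells can induce, and gut Treg cells are a known source of the anti-inflammatory cytokine Il10.

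Levels are log2 RMA intensities, and a difference is the LP Treg mean minus the LN CD103+Klrg1+ mean on the log2 scale, with the standard error of the fit (limma over all 23 arrays; n = 2 and 2 arrays). A gene was called when its Benjamini-Hochberg adjusted p over 12516 genes tested was under 0.05. Gene lists were chosen with earlier results of these data known, so their counts and medians describe the lists and test nothing. Each list count is to be read beside the shares of all genes tested, 0.743% called higher and 1.31% called lower. When the group with less signal averaged under 6.27, the level a gene had to pass to be tested, the fold is given as "at least". In bulk RNA, fewer cells of a type and less RNA per cell cannot be told apart. Array medians of the 4 arrays ran from 75.5 to 78.8 intensity units. The LP Treg arrays correlated with each other at 0.985 and the double-positive arrays at 0.987, and the LP Tconv arrays at 0.963. The 3' minus 5' signal of Actb, a measure of RNA integrity and amplification, was 1.05 and 0.96 in the LP Treg arrays and 2.05 and 2.01 in the double-positive arrays, and that of Gapdh was 2.42 and 2.65 against 3.15 and 2.88. This measure moves with the comparison, and its part in the results was not tested.

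None of the genes behind the sort was called. Foxp3 read 11.34 and 11.09 in the LP Treg arrays and 11.50 and 10.89 in the double-positive arrays, a difference of 0.02 ± 0.36 (limma adjusted p = 0.995). Klrg1 read 13.26 and 13.50 against 14.14 and 14.18, a difference of -0.78 ± 0.41 that did not pass the test (adjusted p = 0.548). Itgae differed by -0.26 ± 0.61 (adjusted p = 0.942). The gut arrays thus carried Klrg1 and Itgae transcripts although the cells were not selected on either protein, and LP Treg lay below the double-positive arrays for Klrg1 with no overlap, by less than the test could call. Il2ra, the alpha chain of the interleukin-2 receptor, read 9.69 and 10.48 against 11.56 and 10.90, a difference of -1.15 ± 0.38 (adjusted p = 0.198).

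Of 12516 genes tested, 257 were called (2.05%). Of these, 93 were higher in LP Treg (0.743% of genes tested) and 164 were lower (1.31%). Another 1054 genes had only an unadjusted p under 0.05, and the median difference over all genes tested was 0.047. Most called differences were large: 85 of the 93 rises and 153 of the 164 falls were at least 2-fold. The arrays of the groups did not overlap in any of the 257 called genes, as they did not in 49.5% of all genes tested (28% with LP Treg higher and 21.5% with LP Treg lower).

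Most of these genes carried the gut site mark, which was set from the LP Tconv arrays. A gene carried the gut site mark when LP Tconv cells also differed from the double-positive cells in the same direction, a contrast called higher for 2.34% and lower for 3.31% of genes tested. The gut Treg mark was set when LP Treg cells also differed in the same direction from LP Tconv cells, called higher for 1.41% and lower for 1.29%. Of the 93 rises, 51 had the gut site mark alone, 21 the gut Treg mark alone, 1 both and 20 neither. Of the 164 falls, 128 had the gut site mark alone, 12 the gut Treg mark alone and 24 neither. The gut site mark also falls on genes that set the double-positive cells apart from other LN cells. Anxa1 had it, though LP Treg minus CD103-Klrg1- cells was 0.01 and LP Tconv minus the other LN subsets -0.46, neither called. Both marks share arrays with the comparison itself, so the counts describe the genes and test nothing. The direction of LP Tconv cells against the other LN subsets shares no array with it: there 63 of the 93 rises (67.7%) and 99 of the 164 falls (60.4%) were called the same way, and 5 and 5 were called the opposite way, where 4.19% of all genes tested were called in each direction. Those 63 and 99 genes made up 12% and 18.9% of the 524 genes called higher and the 524 called lower in that contrast. Both contrasts share a fit and its spread per gene, and that one also sets Foxp3-GFP- cells against Foxp3-GFP+ cells. These counts too describe the genes and do not test the site.

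**Figure D1:**
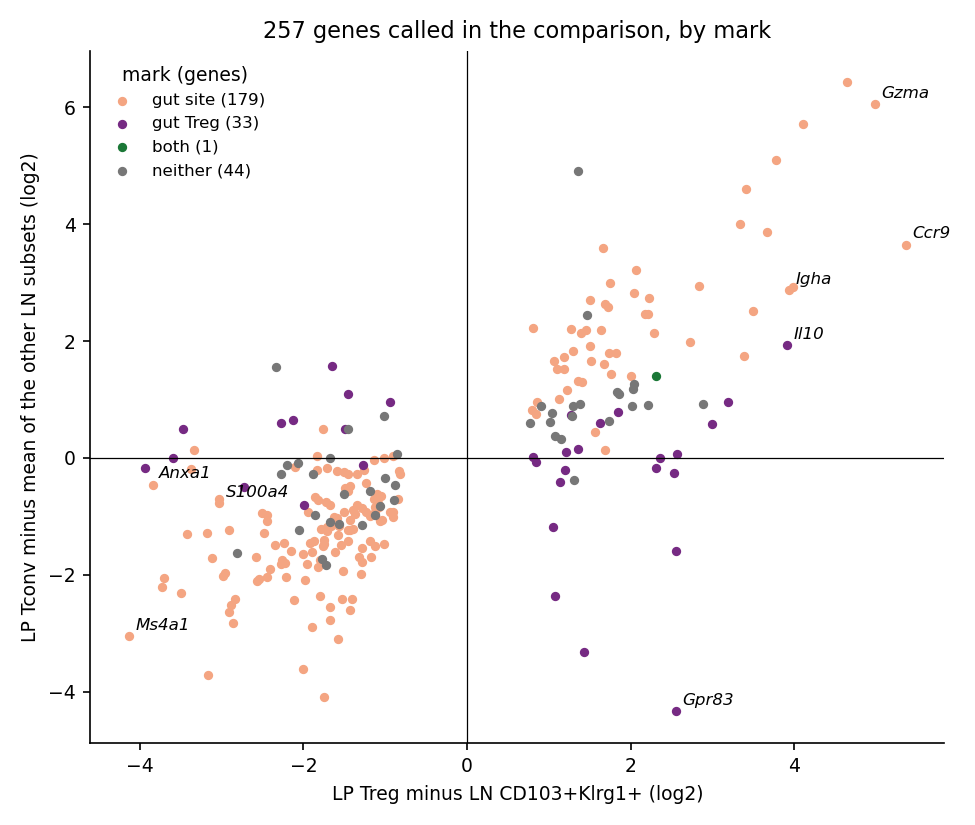
Each point is 1 of the 257 called genes. The horizontal axis gives LP Treg minus LN CD103+Klrg1+ and the vertical axis LP Tconv minus the mean of the other LN Treg subsets, both as log2 differences from separate arrays, and colours give the mark. Gzma and Ccr9 lie high on both axes, Ms4a1 low on both, and Gpr83 is higher in LP Treg but low in LP Tconv.

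Ccr9 had the largest difference among the homing receptors. It read 13 and 13.21 in the LP Treg arrays, 7.05 and 8.43 in the double-positive arrays and 12.81 and 12.23 in the LP Tconv arrays. LP Treg was 41.2-fold higher than double-positive cells (5.36 ± 0.60, limma adjusted p = 4.17e-05), and both gut populations lay far above every LN array, where the highest Ccr9 reading was 9.58. Itga4, the integrin alpha 4 chain, read 11.90 and 11.88 against 10.20 and 10.46 (1.56 ± 0.36, adjusted p = 0.0291), but its adjusted p was 0.129 to 0.238 without any 1 of the 4 arrays. The skin and mucosal receptor Ccr10 went the other way, at 6.33 and 6.47 against 8.17 and 8.32 (-1.84 ± 0.23, adjusted p = 0.000162).

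These were 2 rises and 1 fall among 7 gut homing receptors tested, whose median difference was 0.24. Of all genes tested, 0.743% were called higher and 1.31% lower. The large-intestine receptor Gpr15 read 10.68 and 10.46 against 10.23 and 10.43 (0.24 ± 0.38, adjusted p = 0.905), and Itgb7, the partner chain of Itga4, differed by 0.39 ± 0.54 (adjusted p = 0.891). Of 10 chemokine receptors of inflamed and other tissues, 2 rose. Ccr4, a receptor for Ccl17 and Ccl22, rose by 1.36 ± 0.23 (adjusted p = 0.0021, and 0.0631 without LP Treg replicate 1) and had the gut Treg mark. Gpr183, which senses oxysterols, differed by 2.07 ± 0.50 (adjusted p = 0.0335, but 0.0813 to 0.392 without any 1 array). None of the 9 genes of lymphoid recirculation was called: Ccr7, the lymph node homing receptor, differed by 0.25 ± 0.58 (adjusted p = 0.939) and Klf2, its regulator, by 0.16 ± 0.42 (adjusted p = 0.945).

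Of 17 granule genes tested, Gzma and Gzmb were called, both higher in LP Treg, as were 0.743% of all genes tested. Gzma, a serine protease of cytotoxic granules, read 11.98 and 12.45 in the LP Treg arrays and 6.68 and 7.77 in the double-positive arrays, a 31.8-fold difference (4.99 ± 0.42, limma adjusted p = 5.93e-06). The LP Tconv arrays read 12.20 and 11.94, so gut cells were high whether or not they carried Foxp3. Gzmb, the other main granzyme, read 13.50 and 12.94 against 11.83 and 11.88 (1.36 ± 0.31, adjusted p = 0.0269). LP Tconv read 12.35 and 12.83, a difference from double-positive cells that was not called (0.73 ± 0.31, adjusted p = 0.227), and Gzmb carried neither mark. It was lower in the other LN subsets, with means of 8.98 in CD103+Klrg1- and 6.38 in CD103-Klrg1- cells, and the gut difference was not called without LP Treg replicate 1 (adjusted p = 0.427) or without either double-positive array (0.163 and 0.18). The pore-forming protein Prf1 read 6.75 and 6.65 against 6.65 and 6.80.

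Il10 had the largest rise among genes with the gut Treg mark. It read 14.01 and 13.53 in the LP Treg arrays, 10.18 and 9.54 in the double-positive arrays and 10.53 and 9.04 in the LP Tconv arrays. LP Treg stood 15-fold above double-positive cells (3.91 ± 0.50, limma adjusted p = 0.000182) and 3.98 ± 0.50 above LP Tconv cells on the log2 scale (adjusted p = 7.95e-05). Among LN Treg cells the Il10 level was lowest in CD103-Klrg1- cells, with a mean of 6.85, 8.85 in CD103+Klrg1- cells and 9.86 in the double-positive cells; the double-positive cells differed from the first of these (3.01 ± 0.50, adjusted p = 0.00163) and not beyond the test's threshold from the second (1.01 ± 0.50). Lag3, an inhibitory receptor for MHC class II, was at least 2.32-fold higher (1.21 ± 0.21, adjusted p = 0.00264, and 0.0667 without LP Treg replicate 1). Il10 and Lag3 were the 2 of 15 suppressor and repair mediators that rose.

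Of 34 Treg signature genes tested, 3 rose, none fell, and the median difference was 0.24. The third beside Il10 and Lag3 was Gpr83, a G protein-coupled receptor of Treg cells, which read 11 and 11.20 in the LP Treg arrays and 9.04 and 8.05 in the double-positive arrays (2.55 ± 0.35, limma adjusted p = 0.000342). Here the double-positive cells were the low ones among Treg cells, since the CD103+Klrg1- and CD103-Klrg1- means were 11.53 and 12.11. Ctla4, an inhibitory receptor, differed by 0.45 ± 0.74 (adjusted p = 0.907), and Ikzf2, the transcription factor Helios, by -0.17 ± 0.18 (adjusted p = 0.85). Other rises with the gut Treg mark were Mmp9, a secreted matrix protease, at 10.38 and 10.69 against 7.68 and 7.41 (2.99 ± 0.33, adjusted p = 3.5e-05), and Nrip1, a corepressor of nuclear receptors (2.56 ± 0.40, adjusted p = 0.00131). Pdcd1lg2, the PD-1 ligand PD-L2, differed by 1.20 ± 0.28 (adjusted p = 0.0274, and 0.102 to 0.43 without 1 of 3 arrays). Cables1, which links cyclin-dependent kinases to other kinases, was the only called gene with both marks (at least 4.95-fold higher, 2.31 ± 0.27, adjusted p = 5.72e-05).

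**Figure D2:**
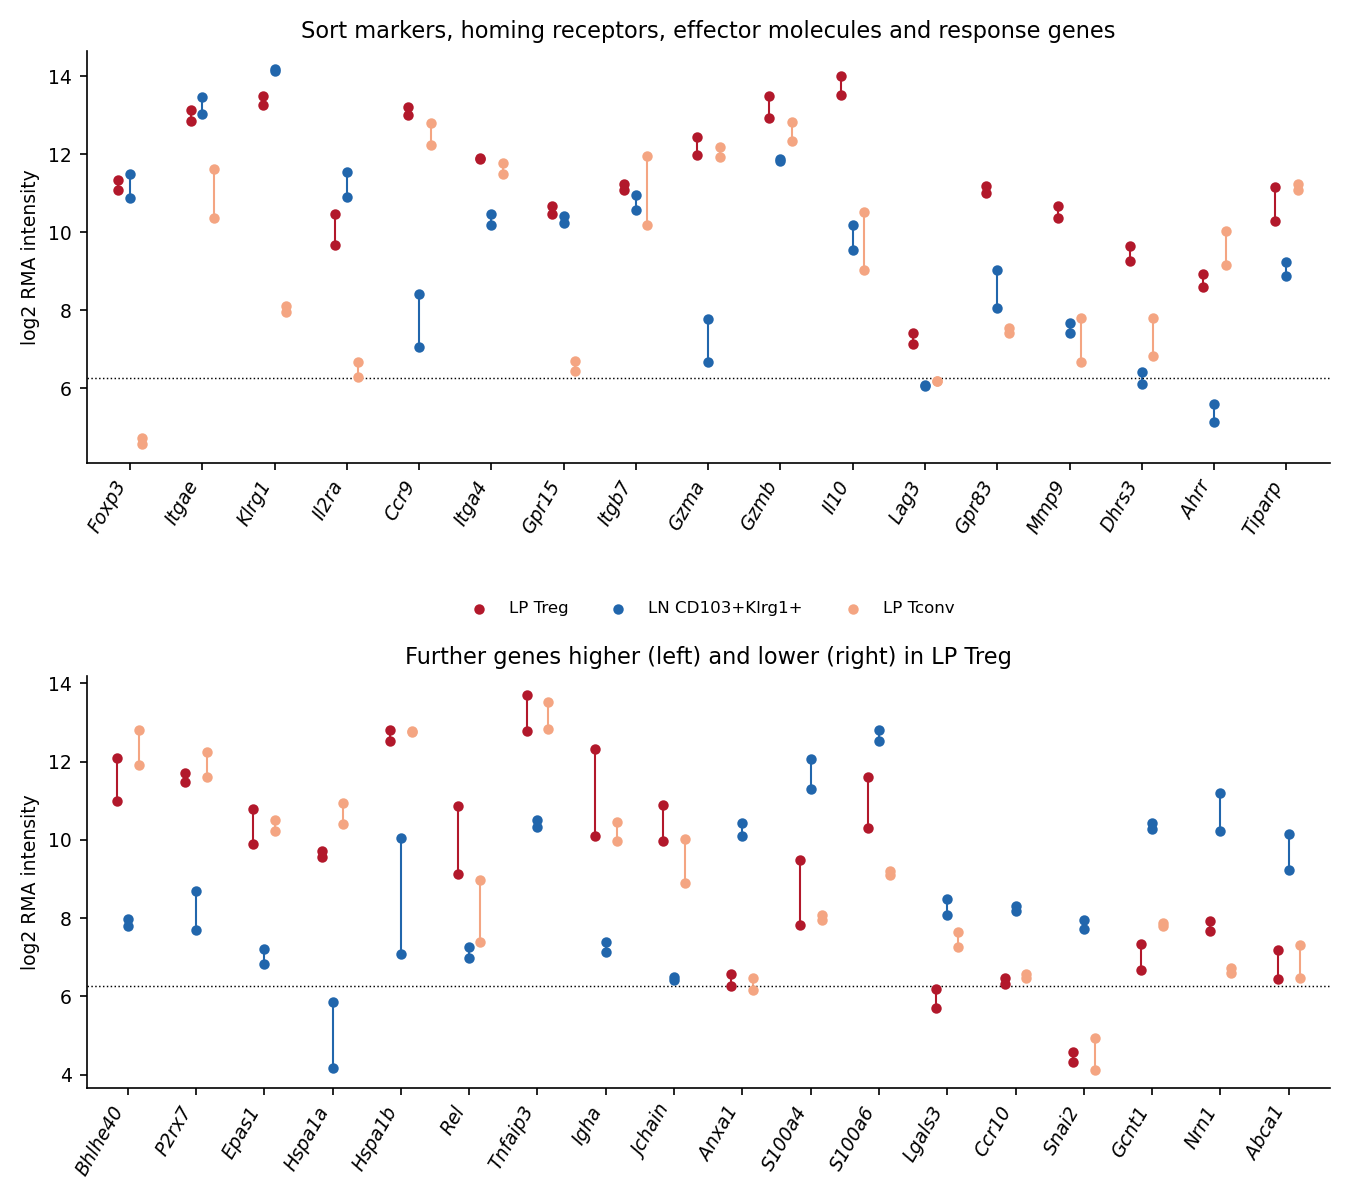
Log2 RMA intensity of single arrays (points, with a line joining the 2 arrays of a group) for sort markers, homing receptors, effector molecules and further called genes in LP Treg, LN CD103+Klrg1+ and LP Tconv cells. The dotted line marks 6.27, the level a gene had to pass to be tested. Ccr9 and Gzma are high in both gut groups, and Il10, Gpr83 and Mmp9 are highest in LP Treg among the 3 groups.

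Targets of the aryl hydrocarbon receptor and retinoic acid gave 3 rises and no fall among 16 genes tested. The shares over all genes tested were 0.743% higher and 1.31% lower. The aryl hydrocarbon receptor is a ligand-sensing transcription factor that dietary and microbial compounds activate in the gut. Ahrr, its repressor and target, read 8.94 and 8.60 in LP Treg, 5.14 and 5.60 in double-positive cells and 10.03 and 9.16 in LP Tconv arrays, at least 10.6-fold higher in LP Treg than in double-positive cells (3.41 ± 0.39, limma adjusted p = 4.53e-05). Tiparp, another target that feeds back on the receptor, read 11.17 and 10.30 against 9.23 and 8.88 (1.68 ± 0.41, adjusted p = 0.0403), but its adjusted p rose to 0.581 without LP Treg replicate 1, to 0.124 without double-positive replicate 1 and to 0.372 without double-positive replicate 2. Transcripts of the receptor itself, Ahr, overlapped between the groups, at 12.38 and 12.08 against 12.29 and 12.23 (-0.03 ± 0.41, adjusted p = 0.992). The target Cyp1a1 stood near the filter, at 6.51 and 6.53 against 5.90 and 6.02 (0.56 ± 0.18, adjusted p = 0.186). Dhrs3, which reduces retinal and is induced by retinoic acid, read 9.26 and 9.66 against 6.43 and 6.11 (3.19 ± 0.31, adjusted p = 1.43e-05) and had the gut Treg mark, with LP Tconv at 6.82 and 7.81.

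The promoters of Ahrr and Tiparp are shown because the receptor binds DNA at the core GCGTG. Each window is the 250 bases before the annotated start in RefSeq (GRCm38.p6), 5′ to 3′ on the gene's strand, with the core in capitals (CACGC where it lies on the opposite strand). Ahrr, at chr13:74292332-74292581 on the minus strand, held 3 cores, which begin 107, 82 and 27 bases upstream of the start. Tiparp, at chr3:65528197-65528446 on the plus strand, held 1, which begins 170 bases upstream. Searched on both strands, the core was in the window of 30.9% of 27025 genes, so its presence is a description of these promoters and not a sign of binding.
Ahrr: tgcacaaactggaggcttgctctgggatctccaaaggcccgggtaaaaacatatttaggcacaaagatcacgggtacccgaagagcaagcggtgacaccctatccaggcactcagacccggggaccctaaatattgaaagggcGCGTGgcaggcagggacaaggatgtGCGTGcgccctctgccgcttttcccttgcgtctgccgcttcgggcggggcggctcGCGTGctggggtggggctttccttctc
Tiparp: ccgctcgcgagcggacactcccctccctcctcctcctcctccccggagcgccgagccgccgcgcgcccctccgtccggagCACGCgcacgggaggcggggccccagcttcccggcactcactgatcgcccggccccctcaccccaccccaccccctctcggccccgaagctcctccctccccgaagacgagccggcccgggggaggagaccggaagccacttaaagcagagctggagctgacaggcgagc

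Of 29 genes of tissue-resident lymphocytes tested, 4 rose and none fell, and their median difference was 0.92 beside 0.047 over all genes. P2rx7, a channel opened by extracellular ATP, read 11.70 and 11.48 in LP Treg and 8.70 and 7.70 in double-positive cells (3.39 ± 0.36, limma adjusted p = 2.75e-05), with LP Tconv at 11.61 and 12.24. The double-positive cells were the low ones among LN Treg cells, with means of 10.19 in CD103+Klrg1- and 10.18 in CD103-Klrg1- cells. LP Treg lay 1.40 and 1.42 above these 2 subsets. Bhlhe40, a transcriptional repressor of activated T cells, read 12.08 and 11 against 7.98 and 7.79 (3.66 ± 0.61, adjusted p = 0.00206, and 0.0632 without LP Treg replicate 1). The others were Osgin1, an oxidative stress response gene (1.35 ± 0.24, adjusted p = 0.00387, and 0.0595 without LP Treg replicate 1 and 0.054 without double-positive replicate 1), and Hilpda, a lipid droplet protein of hypoxic cells (2.04 ± 0.39, adjusted p = 0.00581, and 0.0511 to 0.206 without 1 of 3 arrays). Cd69, which keeps lymphocytes in tissue, read 13.01 and 12.41 against 11.20 and 11.04, a difference of 1.59 ± 0.51 that did not pass the test (adjusted p = 0.161).

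The transcription factor Epas1 and the proteins Asb2 and Lztfl1 were among the largest rises. Epas1, the hypoxia-inducible factor HIF-2 alpha, read 10.79 and 9.90 against 6.82 and 7.21 (3.33 ± 0.29, limma adjusted p = 6.25e-06). Asb2, a substrate adaptor of a ubiquitin ligase, read 10.03 and 10.37 against 6.67 and 6.19 (3.77 ± 0.42, adjusted p = 4.15e-05). Lztfl1, a ciliary trafficking protein encoded beside Ccr9 and other chemokine receptor genes, read 11.48 and 11.17 against 7.90 and 7.75 (3.50 ± 0.33, adjusted p = 1.07e-05). LP Treg minus LP Tconv was -0.02, -1.09 and 0.83 for Epas1, Asb2 and Lztfl1, and all 3 carried the gut site mark. Hic1, a retinoic acid-responsive repressor of intestinal T cells, rose by 2.22 ± 0.27 (adjusted p = 8.51e-05).

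Of 22 regulators of effector Treg cells tested, 4 rose (Rel, Bhlhe40, Nfil3 and Hic1) and 1 fell, beside 0.743% and 1.31% of all genes tested. The fall was Myb, a transcription factor of effector Treg cell differentiation, at 7.78 and 8.24 against 10.32 and 9.94 (-2.12 ± 0.40, limma adjusted p = 0.00612, and 0.132 without LP Treg replicate 1 and 0.0877 without double-positive replicate 1). Nfil3, a basic leucine zipper repressor, differed by 1.85 ± 0.45 (adjusted p = 0.0365, and 0.0827 to 0.658 without 1 of 3 arrays). Among 20 helper lineage factors, 2 rose, Nfil3 and Stat4, the signal transducer of interleukin-12, which differed by 1.82 ± 0.45 (adjusted p = 0.0409, and 0.0739 to 0.484 without any 1 array). Its receptor chain Il12rb1 read 9.29 and 9.32 against 8.12 and 7.60 (1.45 ± 0.26, adjusted p = 0.00368, and 0.106 without double-positive replicate 2).

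Of 33 immediate early and NF-kB response genes tested, 2 rose and none fell, with a median difference of 1.16 beside 0.047 over all genes tested. Rel, the NF-kB subunit c-Rel, read 10.86 and 9.13 against 6.97 and 7.27 (2.88 ± 0.51, limma adjusted p = 0.00348, and 0.123 without LP Treg replicate 1). Tnfaip3, the NF-kB inhibitor A20, read 13.70 and 12.78 against 10.51 and 10.32 (2.83 ± 0.67, adjusted p = 0.0317, but 0.06 to 0.425 without any 1 array). Jun, a subunit of AP-1, read 10.79 and 10.86 against 6.24 and 8.05, and its difference of 3.68 ± 1.23 was not called (adjusted p = 0.198). Both Jun readings in the gut lay above both double-positive readings, which were far apart.

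Heat shock chaperones gave 3 rises and no fall among 13 tested, with a median difference of 0.72. Over all genes tested, 0.743% rose and 1.31% fell. Hspa1a, an inducible Hsp70, read 9.72 and 9.57 in LP Treg, 4.16 and 5.85 in double-positive cells and 10.41 and 10.95 in LP Tconv arrays (at least 24.9-fold, 4.64 ± 0.46, limma adjusted p = 1.43e-05). Its paralog Hspa1b read 12.53 and 12.80 against 7.09 and 10.04 (4.10 ± 0.82, adjusted p = 0.00935, and 0.0713 to 0.206 without 1 of 3 arrays). The double-positive arrays themselves lay far apart for Hspa1b, with replicate 2 higher. Hspa5, a chaperone of the endoplasmic reticulum, differed by 0.85 ± 0.21 (adjusted p = 0.0369, and 0.0578 to 0.503 without 1 of 3 arrays). The constitutive Hspa8 read 13.62 and 13.50 against 13.50 and 12.96 (0.33 ± 0.22, adjusted p = 0.696), and the co-chaperone Dnajb1 differed by -0.16 ± 0.23 (adjusted p = 0.898).

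Hspa1a and Hspa1b are near-identical copies whose probe sets may share signal, so their separate values are uncertain. Their promoter windows show how alike the genes are: 247 of 250 bases were the same (98.8%). Both lie on chromosome 17 on the minus strand (RefSeq, GRCm38.p6), Hspa1a at chr17:34972157-34972406 and Hspa1b at chr17:34959239-34959488. Each held 1 match to GAANNTTC or TTCNNGAA, the inverted repeat that heat shock factor binds, shown in capitals and beginning 104 bases upstream of the start. The repeat, searched on both strands, was in the window of 14.5% of 27025 genes.
Hspa1a: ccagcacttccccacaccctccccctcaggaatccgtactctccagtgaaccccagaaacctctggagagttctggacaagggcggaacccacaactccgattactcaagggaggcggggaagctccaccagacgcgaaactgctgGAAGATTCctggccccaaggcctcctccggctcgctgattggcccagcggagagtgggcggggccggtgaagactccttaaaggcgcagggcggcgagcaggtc
Hspa1b: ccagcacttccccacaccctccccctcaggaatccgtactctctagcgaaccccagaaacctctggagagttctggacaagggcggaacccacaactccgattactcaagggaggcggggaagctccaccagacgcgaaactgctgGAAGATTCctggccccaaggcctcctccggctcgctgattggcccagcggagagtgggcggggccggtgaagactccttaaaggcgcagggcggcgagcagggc

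Igha and Jchain, which antibody-secreting cells express, were higher in the gut arrays. Igha, the constant region of IgA, read 12.31 and 10.10 in LP Treg and 7.14 and 7.38 in double-positive cells (3.94 ± 0.42, limma adjusted p = 2.75e-05), and the joining chain Jchain read 10.90 and 9.97 against 6.49 and 6.41 (3.98 ± 0.43, adjusted p = 3.19e-05). LP Tconv arrays read 9.96 and 10.45 for Igha and 10.02 and 8.90 for Jchain, so both gut populations carried them. Mzb1, a chaperone of antibody-secreting cells, did not follow, at 6.95 and 6.90 against 7.29 and 7.55 (-0.49 ± 0.18, adjusted p = 0.261). Of 12 B and plasma cell markers listed, 9 were on the array under a name of their own and 8 were tested, of which 2 rose and 1 fell. The summed list did not separate the groups: the mean over it was 8.02 and 8.38 in the LP Treg arrays and 7.91 and 8.11 in the double-positive arrays.

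The fall was Ms4a1, which encodes the B cell antigen CD20. It read 6.28 and 6.18 in LP Treg, 9.84 and 10.88 in double-positive cells and 6.58 and 6.06 in LP Tconv arrays, at least 17.5-fold lower in LP Treg (-4.13 ± 0.39, limma adjusted p = 1.07e-05). Other B cell genes were among the largest falls: the adaptor Bank1 (-3.73 ± 0.53, adjusted p = 0.000519) and the coactivator Pou2af1 (-3.70 ± 0.49, adjusted p = 0.000286), with folds of at least 13.3 and 13. A set of 12 B cell genes picked out after their values were seen, with Fcer2a, Tnfrsf13c, Blnk, Btk, Cd22, Cr2, Spib, Ly6d and Ly86 added, fell by 1.08 to 4.13 on the log2 scale. They were picked because they fell, so their values describe the choice and test nothing. In all 12, double-positive replicate 2 read higher than replicate 1, by 0.24 to 1.63, as it did in 108 of the 164 falls and in 5771 of the 12516 genes tested. Their mean level was 6.10 and 6.26 in the LP Treg arrays, 8 and 9.03 in the double-positive arrays, 7.85 and 7.38 in CD103+Klrg1- and 7.91 and 7.97 in CD103-Klrg1- arrays, and 6.30 and 6.16 in LP Tconv. The labelled sort took B220- cells, and what these transcripts contribute to the other falls was not tested. The B cell factor Pax5 read 6.39 and 6.73 against 6.27 and 6.67 (0.09 ± 0.18, adjusted p = 0.925).

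**Figure D3:**
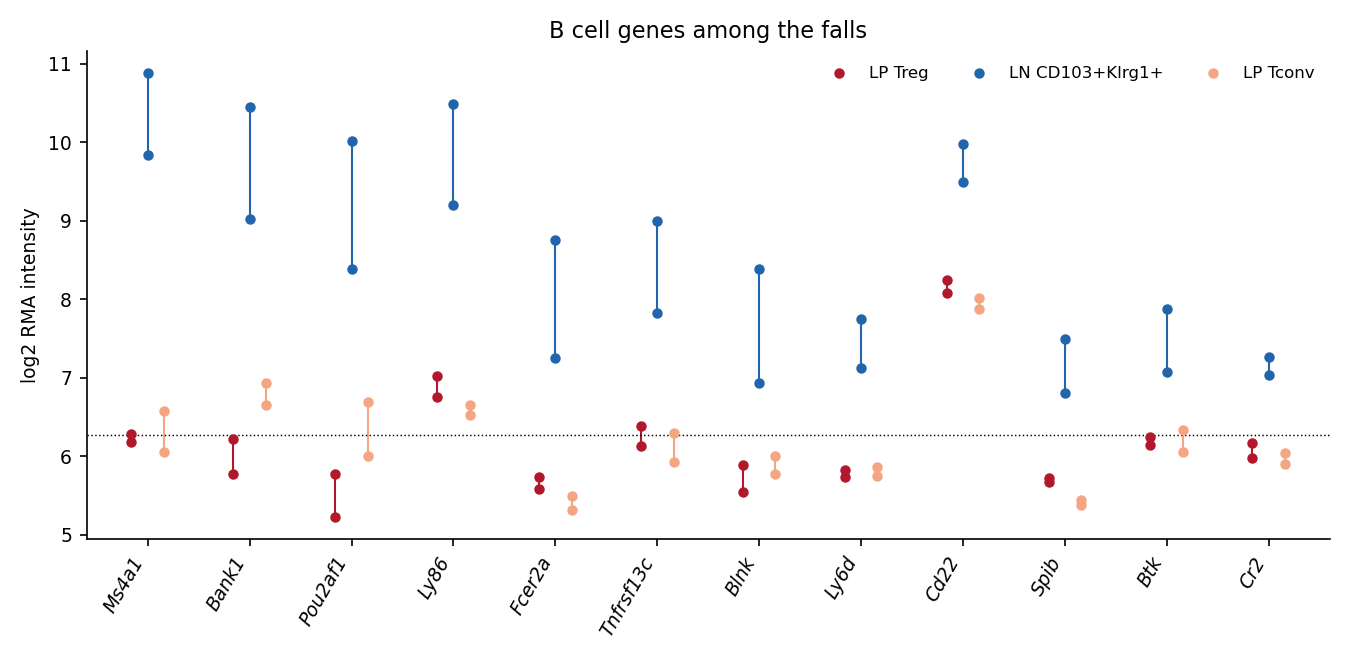
Log2 RMA intensity of single arrays for 12 B cell genes that were lower in LP Treg, chosen after their values were seen, in LP Treg, LN CD103+Klrg1+ and LP Tconv arrays. In every gene both LN CD103+Klrg1+ arrays lie above all gut arrays and are 0.24 to 1.63 apart.

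Markers of other cell types that a gut or lymph node sort could hold were seldom called. Of 15 epithelial markers, 12 were below the filter, and none of the 3 tested was called. None of the mast cell, Paneth cell, stromal or CD8 T and NK marker lists had a called gene. Cd8a differed by -0.25, but its 4 other probe sets above the filter differed by -0.76 to -2.5. Eomes, of the CD8 T and NK list, read 5.51 and 5.91 against 6 and 8.07 (-1.32 ± 0.48, limma adjusted p = 0.264). Cd8b1, Klrk1 and Ncr1 differed by -0.90, -0.15 and -0.13. Of the Paneth cell markers, Lyz1 differed by -2.30 ± 0.82 (adjusted p = 0.245), Mmp7 by 0.14 and Ang4 by -0.22. Of 9 myeloid markers, Cd74, the invariant chain of MHC class II, was the only one called, lower in LP Treg (-1.63 ± 0.40, limma adjusted p = 0.0403, but 0.0918 to 0.414 without any 1 array), and it was also the only call among 9 genes of the MHC class II pathway, whose median difference was -1.13. H2-Aa, an MHC class II chain, read 9.30 and 8.89 against 10.80 and 11.86 (-2.24 ± 0.64, adjusted p = 0.0944), higher in double-positive replicate 2 as the B cell genes were. Klrd1, the CD94 chain of natural killer receptors, read 5.18 and 5.49 against 7.39 and 10.22 (-3.47 ± 0.72, adjusted p = 0.013, and 0.333 without double-positive replicate 2, 0.156 and 0.0605 without LP Treg replicates 1 and 2).

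Annexins, S100 proteins and galectins held 4 falls and no rise among 20 tested, with a median difference of -0.35. Anxa1, a phospholipid-binding mediator of resolving inflammation, read 6.27 and 6.57 in LP Treg and 10.09 and 10.43 in double-positive cells, 14.3-fold lower (-3.84 ± 0.33, limma adjusted p = 5.93e-06). Both gut populations were at the level of CD103-Klrg1- LN cells, with LP Tconv at 6.47 and 6.17 and a CD103-Klrg1- mean of 6.41. These levels lay near the filter of 6.27, where signals give only a bound on the fold. A second Anxa1 probe set was below the filter, at 5.32 in LP Treg and 5.31 in double-positive cells. The double-positive arrays were the highest of the 10. S100a4, a calcium-binding protein of motile cells, read 7.83 and 9.49 against 12.07 and 11.31 (-3.03 ± 0.49, adjusted p = 0.00164, and 0.0573 without LP Treg replicate 1). Its relative S100a6 read 10.30 and 11.60 against 12.81 and 12.53 (-1.72 ± 0.43, adjusted p = 0.0418, and 0.188 to 0.699 without 1 of 3 arrays). Lgals3, galectin-3, was at least 5.03-fold lower (-2.33 ± 0.41, adjusted p = 0.00337, and 0.0828 without LP Treg replicate 1 and 0.0536 without double-positive replicate 1). Lgals1, galectin-1, read 10.11 and 10.94 against 11.98 and 11.02 (-0.97 ± 0.66, adjusted p = 0.711).

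The double-positive cells stood apart from the other LN Treg cells in some of these falls and not in others. Of the 164 falls, 24 were also called higher in double-positive than in CD103+Klrg1- LN cells (0.384% of all genes tested were, and 0.264% were called lower) and 47 higher than in CD103-Klrg1- cells (1.47%); these contrasts share the double-positive arrays with the comparison. The Anxa1 mean was 10.26 in double-positive cells, 7.15 in CD103+Klrg1- cells and 6.41 in CD103-Klrg1- cells. Snai2, a zinc finger repressor, had means of 7.83, 5.33 and 4.11 in the same order and read 4.32 and 4.58 in LP Treg. Gcnt1, which builds core 2 O-glycans for selectin ligands, had means of 10.35, 8.82 and 6.60 and read 6.68 and 7.34 in LP Treg (-3.34 ± 0.33, limma adjusted p = 1.43e-05). Bmf, a pro-death member of the Bcl2 family, had means of 9.30, 8.05 and 7.36 and read 7.18 and 6.40 in LP Treg (-2.51 ± 0.28, adjusted p = 3.38e-05). Against CD103+Klrg1- cells, the double-positive cells were called narrowly for Gcnt1 and Bmf (adjusted p = 0.0429 and 0.0461, and 0.0538 and 0.0605 with a replicate block). In these 4 genes LP Treg was nearer the CD103-Klrg1- level than the double-positive level.

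Other falls were not called between the double-positive and the CD103+Klrg1- LN cells. Nrn1, a membrane-anchored neuritin, read 7.68 and 7.92 in LP Treg and 11.19 and 10.23 in double-positive cells (-2.91 ± 0.31, limma adjusted p = 2.75e-05), with CD103+Klrg1- and CD103-Klrg1- means of 9.56 and 9.03. Abca1, a cholesterol exporter, read 6.44 and 7.18 against 9.22 and 10.16 (-2.88 ± 0.48, adjusted p = 0.00229, and 0.0652 without LP Treg replicate 1 and 0.0651 without double-positive replicate 2), with means of 9.37 and 9.45 in the other LN subsets. It was 1 of 3 falls, with no rise, among 21 genes of the cholesterol and fatty acid list; the others were its fellow exporter Abcg1 (-1.13 ± 0.22, adjusted p = 0.0067, and 0.0553 to 0.137 without 1 of 3 arrays) and the desaturase Scd1 (-2.84 ± 0.46, adjusted p = 0.00161), at least 7.18-fold lower. Scd1 lost its call with the 10 gut and LN arrays and with the 4 arrays alone (limma adjusted p up to 0.0702). Its double-positive replicates 1 and 2 read 7.95 and 9.92. No gene of cholesterol synthesis proper was called, and the median of the list was 0.34, opposite in sign to the calls of the list. Cd81, a tetraspanin, fell by 1.58 on the log2 scale (adjusted p = 0.00612, and 0.206 and 0.0751 without replicate 1 of LP Treg and of double-positive cells).

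Falls with the gut Treg mark were lower in LP Treg than in either the double-positive or the LP Tconv cells. Sema4a, a semaphorin that binds Nrp1, read 4.69 and 5.18 in LP Treg, 7.66 and 9.39 in double-positive cells and 8.77 and 8.06 in LP Tconv arrays, at least 12.1-fold lower (-3.59 ± 0.42, limma adjusted p = 5.72e-05). Its other probe set above the filter differed by -0.59, and the mean of its probe sets by -2.09. Pxylp1, a phosphatase of proteoglycan synthesis, read 3.68 and 3.27 against 6.92 and 7.93 (-3.94 ± 0.39, adjusted p = 1.51e-05), with LP Tconv at 7.42 and 6.84. Another Pxylp1 probe set above the filter differed by -1.01, and the mean of its probe sets by -1.57. Chsy1, a chondroitin synthase of the same kind of glycan, read 8.10 and 8.81 against 10.61 and 10.86 (-2.28 ± 0.31, adjusted p = 0.000313). The other LN subsets were not called against the double-positive cells for Sema4a, with means of 8.05 and 8.79, and for Pxylp1, with 7.23 and 7.38. For Chsy1 the means were 9.47 in CD103+Klrg1- and 9.25 in CD103-Klrg1- cells. Double-positive cells were called above the latter (1.48 ± 0.31, limma adjusted p = 0.0113). LP Treg was not called against either subset for Chsy1, with differences of -1.01 and -0.80.

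**Figure D4:**
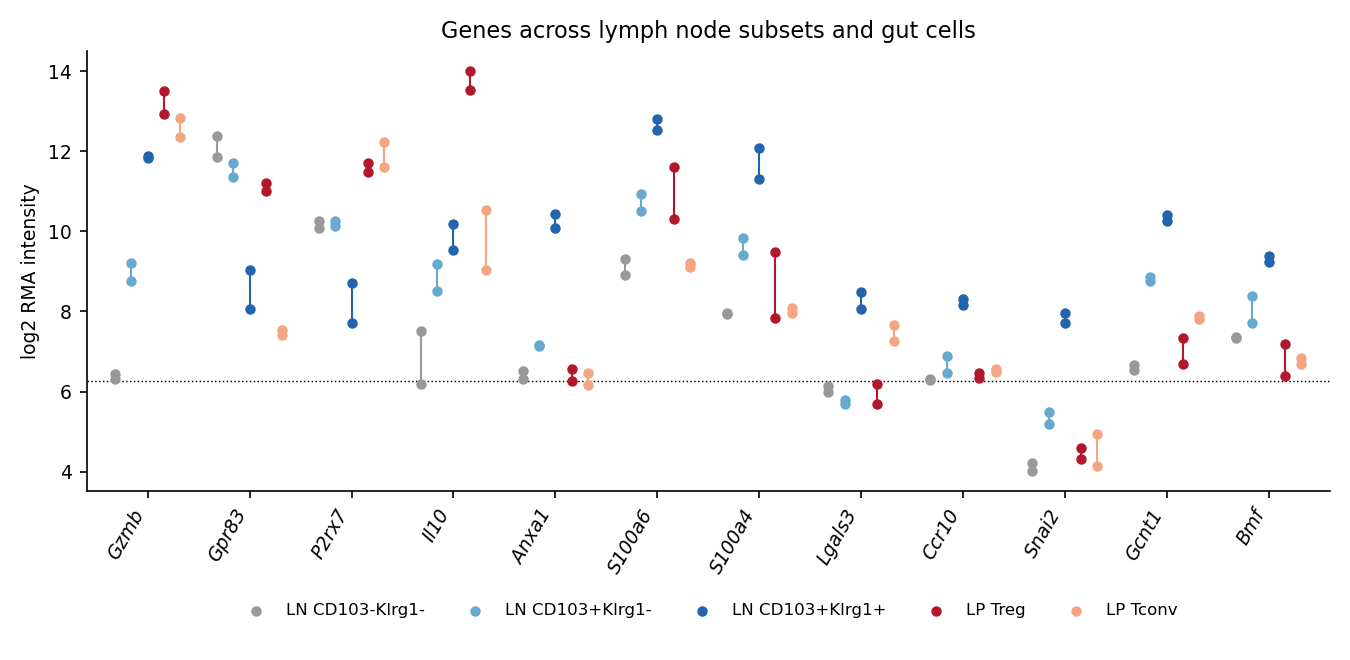
Log2 RMA intensity of single arrays for 12 genes across the 3 LN Treg subsets, LP Treg and LP Tconv. Anxa1, S100a4, S100a6, Gcnt1 and Snai2 peak in LN CD103+Klrg1+ cells, Gzmb climbs from CD103-Klrg1- to CD103+Klrg1+ LN cells and is highest in LP Treg, and Gpr83 is lowest among Treg cells in LN CD103+Klrg1+.

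Among the lists with no called gene were 39 cell cycle genes (median -0.2), 20 genes of glycolysis and hypoxia (0.25), 17 naive and central T cell genes (-0.52), 13 chemokines (0.15) and 14 TNF receptor family members (0.17). Helper cytokines had 1 call of 14: Tnfsf11, the cytokine RANKL, read 10.66 and 10.12 against 8.87 and 7.89 (2.01 ± 0.50, limma adjusted p = 0.0413, but 0.0502 to 0.53 without any 1 array). Il17a and Il21, which mark helper cells rather than Treg cells, differed by 0.34 and 0.41 and were not called. Of 29 interleukin and interferon receptors, 3 rose and 1 fell, among them Ifngr1, a chain of the interferon-gamma receptor, at 11.74 and 11.44 against 9.81 and 9.65 (1.86 ± 0.35, adjusted p = 0.00599, and 0.115 without LP Treg replicate 1 and 0.0841 without double-positive replicate 2). Of 26 genes of TGF-beta signalling, Smad3, which carries the signal to the nucleus, rose by 1.07 ± 0.20 (adjusted p = 0.00512, and 0.103 without double-positive replicate 2 and 0.0581 without LP Treg replicate 2), and the receptor Bmpr1a fell by 1.24 on the log2 scale (adjusted p = 0.0245, and 0.0823 to 0.343 without 1 of 3 arrays).

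**Figure D5:**
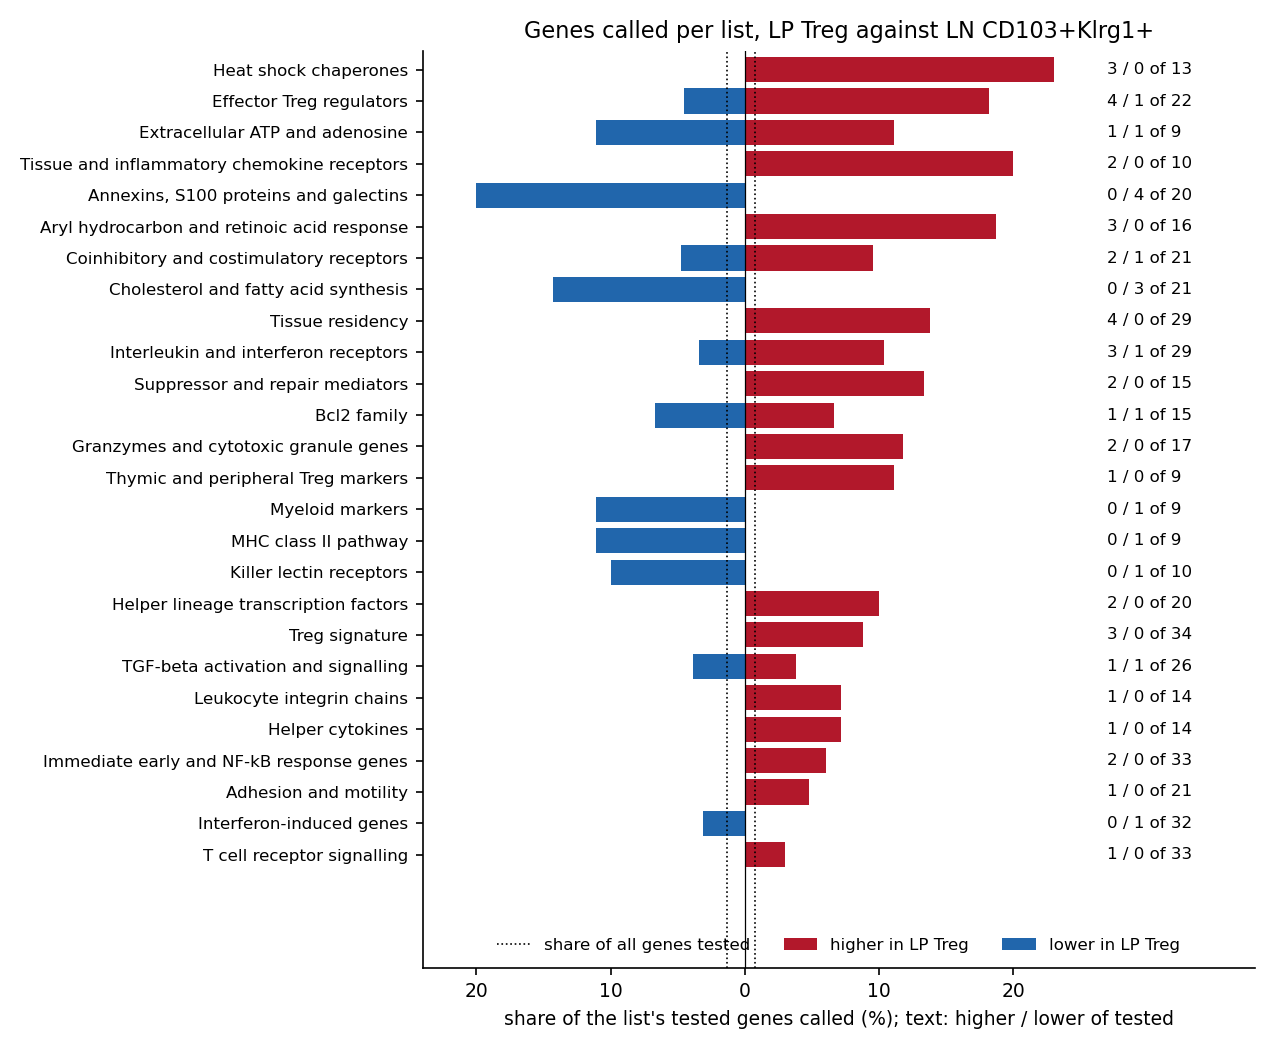
Share of each gene list's tested members that were called higher (right, red) or lower (left, blue) in LP Treg than in LN CD103+Klrg1+, for lists with more than 8 genes tested and at least 1 call. Dotted lines give the shares over all genes tested, 0.743% higher and 1.31% lower; the numbers at the right are genes higher and lower of genes tested, such as 3 and 0 of 13 heat shock chaperones.

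With 2 arrays a side, single arrays weighed on many calls. Of the 83 genes called in the comparison and followed by name, 37 were called without each of the 4 arrays in turn, 18 of 43 rises and 19 of 40 falls. Ccr9, Gzma, Il10, Anxa1, Hspa1a, Ahrr, P2rx7, Epas1, Dhrs3, Mmp9 and Gpr83 were among them. Leaving out LP Treg replicate 1 took the most calls, 42 of the 83, some of which then fell below the filter. LP Treg replicate 1 read higher than replicate 2 in 66 of the 93 rises, and in 5473 of the 12516 genes tested. Probe sets of 1 gene did not always move together. Another probe set above the filter went the other way in 2 of 31 rises and 21 of 73 falls that had one. With the mean of a gene's probe sets, the difference moved by over 1.5 times in 20 of the 83 genes. Among them it was -1.92 for Anxa1, 1.84 for Epas1, -1.89 for Snai2, -1.06 for Abca1, -1.57 for Scd1, -0.88 for Bmf, 0.65 for Smad3 and -0.78 for Bmpr1a, and all 8 were still called. Grap2 (0.55), Enc1 (-0.73) and Zfp961 (-0.62) moved as much and lost the call. Tiparp (1.25), Gpr183 (1.43), Myb (-1.64) and Hspa5 (0.70) moved less and lost it too.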

How the data were processed

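Affymetrix M430v2 arrays held RNA of CD4+ T cells sorted from mice. Per the labels' protocols, it was isolated with Trizol and amplified by the MessageAmp kit. The deposited values are linear intensity values that the authors made with RMA, per the submitters' processing notes; the version is not given in the sources used here. All 23 columns of the table were mapped to samples. Log2 was taken of the deposited intensity with no pseudocount. Of 45101 probe sets, 34945 carried 1 gene symbol, 932 several and 9224 none (controls included), and the 64 control probe sets were not used. This gave 18193 genes, each read from its probe set of highest average signal. Testing was limited to the 12516 genes with a group mean over 6.27 in 1 or more groups, the median log2 value of the table.

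A mean per group, 9 in all, was fitted to the 23 arrays with limma 3.58.1 (lmFit, eBayes) in R 4.3.3, with 14 residual and 3.48 prior degrees of freedom. Tests are two-sided with Benjamini-Hochberg adjustment over all genes tested. Tables and figures used Python 3.11.15, pandas 2.3.3, numpy 2.4.6 and matplotlib 3.10.9. The fit was tested on simulated data. The number of arrays limits the precision.

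Genes named are the comparison markers and the sort genes, the 20 largest called rises and falls whose arrays do not overlap, up to 5 called members of each of 44 gene lists with the smallest p (all members of lists of 8 or fewer), and the 5 rises and 5 falls of smallest p in each mark. Genes named outside this rule are list members or were chosen after their values were seen. Clone names, predicted genes and variable segments, 21 of the 257 called, were counted but not named. The members and lists were chosen with earlier results of these data known. Promoter windows came from RefSeq tables (GRCm38.p6), which matched 93 of 119 named genes. Alternatives were quantile and cyclic loess normalization, the mean of probe sets, no filter and a stricter one, a pseudocount of 32, fewer arrays, array weights, an intensity trend, a replicate block and leaving out single arrays.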

Additional observations from a re-analysis of the deposited data

Results flagged for a closer look

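For 11 of the 83 named genes called in the comparison, LP Treg differed in its distance from double-positive and from CD103+Klrg1- LN cells. The limma test of this difference is the double-positive minus CD103+Klrg1- contrast (n = 2 and 2 arrays, adjusted p under 0.05 over all genes). Of all genes tested, 81 (0.647%) were called in that contrast. It shares the double-positive arrays with the comparison through which the 11 were chosen, so their count describes these genes and tests nothing. The double-positive cells were higher for Anxa1 (3.11 ± 0.33, limma adjusted p = 4.93e-05), Gzmb (2.88 ± 0.31, adjusted p = 7.52e-05), Lgals3 (2.54 ± 0.41), Snai2 (2.50 ± 0.35), S100a6 (1.95 ± 0.43), Ccr10 (1.57 ± 0.23), Gcnt1 (1.53 ± 0.33), Bmf (1.25 ± 0.28) and Tmem163 (1.14 ± 0.23). They were lower for Gpr83 (-2.99 ± 0.35, adjusted p = 0.000181) and P2rx7 (-1.99 ± 0.36, adjusted p = 0.0112). Against CD103+Klrg1- cells, LP Treg differed by -0.73 for Anxa1, by 4.24 for Gzmb and by -0.43 for Gpr83, beside -3.84, 1.36 and 2.55 against the double-positive cells. With a replicate block 8 of the 11 kept this call, and Gcnt1, S100a6 and Bmf did not (adjusted p = 0.0538, 0.0591 and 0.0605). Anxa1, Gpr83, Snai2 and Gzmb, 4 of the 11, were called without each double-positive or CD103+Klrg1- array in turn. Tests for a single array standing apart were not possible in groups of 2.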

How the results depend on the processing

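The comparison's 257 calls were 222 to 310 under quantile or cyclic loess normalization, other probe set, filter and pseudocount choices, fewer arrays or an intensity trend. Of the 257, 173 were also called with the 10 gut and LN arrays, 180 with the 4 arrays alone, 189 with the mean of probe sets and 213 to 252 with the other choices. Array weights gave 648 and, in an alternative added after seeing the data, leaving out both dim DEC CD25- arrays gave 448; both kept all 257. With the mean of probe sets, 2 of the 257 had the opposite sign. Without those arrays, 301 of the called genes shared the site direction in LP Tconv (180 in the main fit), 69 the gut Treg direction (34) and 281 the site direction against the other LN subsets (162). With the 10 gut and LN arrays alone, 39 genes differed between double-positive and CD103+Klrg1- LN cells (81 in the main fit).

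Leaving out 1 array in turn, with the lone array assumed to vary like the other groups, gave 95 to 194 calls in the comparison (95 without LP Treg replicate 1, 194 without LP Treg replicate 2, 154 and 121 without double-positive replicates 1 and 2). The ranges were 71 to 213 for the site direction in LP Tconv, 13 to 33 for the gut Treg direction, 63 to 191 against the other LN subsets and 20 to 44 for called list memberships (54 in the main fit). Calls of LP Treg against CD103+Klrg1- cells ranged from 71 to 253 and against CD103-Klrg1- cells from 194 to 438. Calls of double-positive against CD103+Klrg1- cells ranged from 25 to 48 and against CD103-Klrg1- cells from 124 to 203.

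The replicate block gave 258 calls, 244 of them shared with the main fit. It gave 73 calls of double-positive against CD103+Klrg1- cells (81 without it) and 258 against CD103-Klrg1- cells (263). Arrays share only a number: same-number residuals of LP Treg and double-positive arrays correlated at -0.02, and those of the 3 LN subsets at 0.37 to 0.72, a hint from the data and not the design. Crossed pairings, added after seeing the data where same-number residuals were below -0.1, gave 189 genes in the site direction and 308 calls of LP Treg against CD103+Klrg1- cells. Of the results for single named genes, 1592 stayed on their side of the threshold, 169 lost the call and 6 gained it. No called gene changed sign, and 10 genes not called did in 22 of their 448 values. Signals near 6.27 give only a bound on the fold.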
